A study of Mus musculus with 8 samples.

Results

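The genes described here are 10 genes of acetylcholine signalling, chosen by name from the 22430 genes listed in the count table. Chat, Slc18a3, Slc5a7 and Ache serve to make, load, recapture and break down the transmitter, Chrm1, Chrm2, Chrm3 and Chrm4 encode muscarinic receptors, and Chrna4 and Chrnb2 encode nicotinic receptor subunits. The rule for choosing them used no measured value, though earlier results of these data were known, and all 10 had enough reads to be tested (more than 5 counts in at least 4 libraries). The question was how the level of each gene differed between young adult and aged brain.

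RNA came from a brain hemisphere (labelled whole brain) of each of 8 male C57Bl/6JRj mice, 4 aged 6 months (6m) and 4 aged 24 months (24m), and every animal gave 1 poly(A) library. The labels give neither a transgene nor a treatment, and age is the only difference between the groups that they give. They do not give purchase or processing batches, so a difference in these could not be told apart from age. Totals ran from 63460940 to 74513571 counts in 6m and from 72936345 to 103462414 in 24m. The deepest library, 24m replicate 1, was also the 24m library nearest to the 6m mean for 8 of the 10 genes, while 24m replicate 4 was the farthest from it for 6. A hemisphere mixes all brain regions, and in such tissue fewer cells of a type and less RNA per cell cannot be told apart.

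Acetylcholine is made from choline and acetyl-CoA in a small set of neurons, mainly of the basal forebrain, the striatum, the brainstem and the medial habenula, and acts on receptors carried by many other cells. Nicotinic receptors are ion channels built of several subunits, whereas muscarinic receptors signal through G proteins. Chrm1 and Chrm3 couple to Gq and phospholipase C, and Chrm2 and Chrm4 to Gi, which restrains adenylyl cyclase. In the brain this system is known for its part in attention, memory and motor control, and its presynaptic genes, apart from Ache, are made by few cells and its receptor genes by many.

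Receptor genes were higher in 24m and the presynaptic genes split. Of the 10 genes, 6 were called higher, namely Slc5a7, Chrm1, Chrm2, Chrm3, Chrna4 and Chrnb2, where a call needs both an edgeR adjusted p no larger than 0.05 and a log2 fold change (log2FC, 24m against 6m) of 0.58 or more in size. Among all 16730 tested genes 25.3% were called higher and 18.3% lower, or 43.6% in either direction. By edgeR 0 of the 10 were called lower, 2 were lower at an unadjusted p under 0.05, and DESeq2 and limma-voom on the deposited counts also called 0 lower. The adjusted p alone was passed by 7 higher genes and 1 lower gene, against 32.7% and 29.9% of all tested genes. Every 24m library lay above every 6m library in 7 genes and below in 0, against 28.4% and 26.8% of all tested genes and 55.2% in either direction. The median log2FC was 0.81 over the 10 genes, with a range of -0.57 to 2.47, and -0.0034 over all tested genes. All 6 receptor genes passed the adjusted p and 5 were called. Without 24m replicate 1 the same 6 genes were called higher, and Slc18a3 was called lower. Plots of the levels by library show these values gene by gene.

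**Figure D1:**
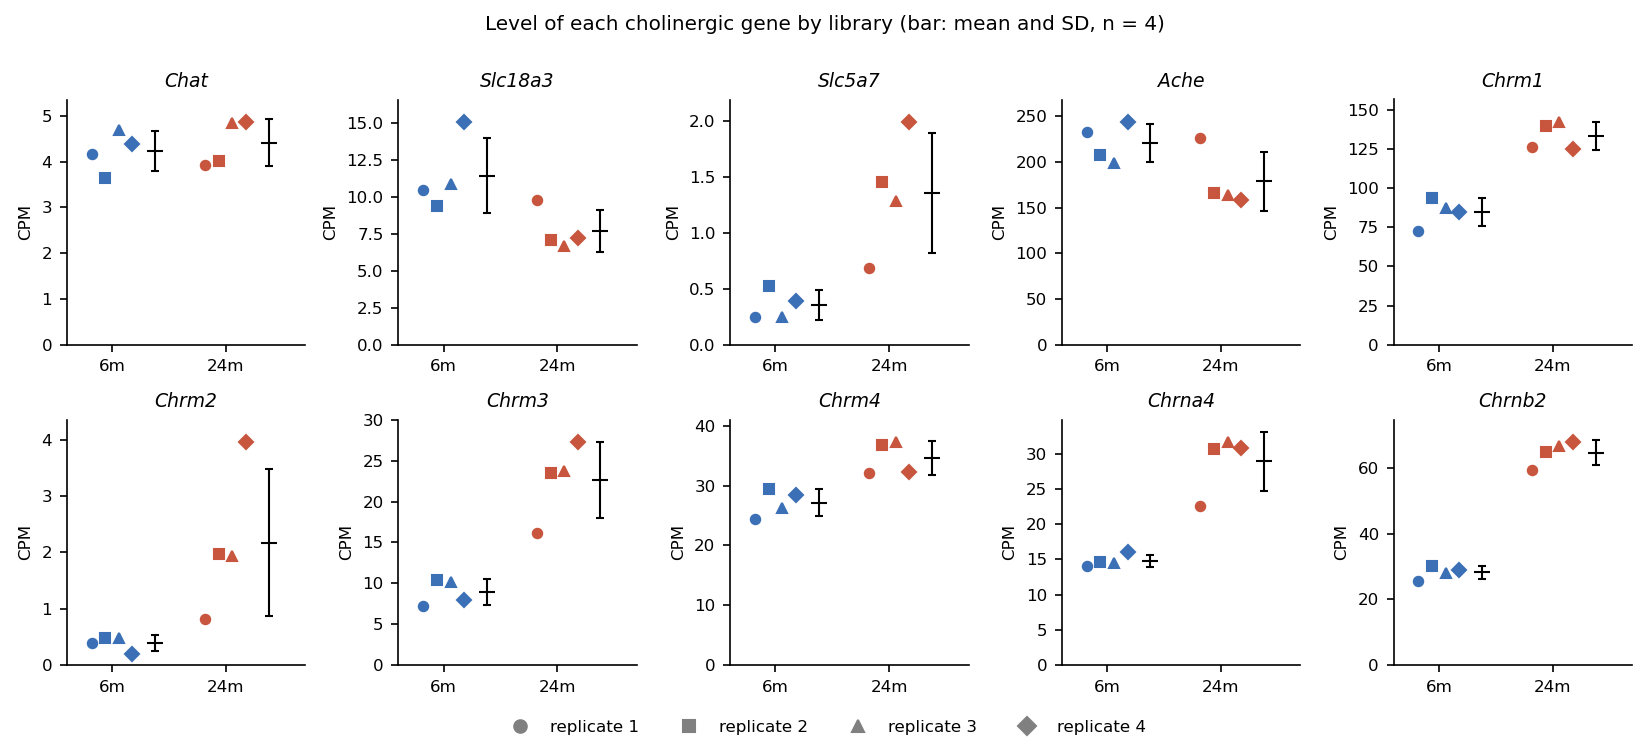
Level of each of the 10 cholinergic genes in CPM (vertical axis from 0, counts scaled to a common library size) in the 4 libraries of 6m (blue) and of 24m (red), with marker shapes for replicate numbers and black bars for the mean and SD (n = 4). Chrm1, Chrm2, Chrm3, Chrm4, Chrna4, Chrnb2 and Slc5a7 have every 24m library above every 6m library, and Chat, Slc18a3 and Ache overlap between ages.

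Chat, which encodes choline acetyltransferase, the enzyme that makes acetylcholine and defines a cholinergic neuron, had close to the same level at both ages. It measured 4.18, 3.65, 4.69 and 4.39 CPM in 6m replicates 1 to 4 and 3.94, 4.02, 4.84 and 4.87 CPM in 24m replicates 1 to 4, where CPM is counts per 1e+06 of the library size scaled by trimmed mean of M values (TMM). The ages overlapped throughout. This gave a log2FC of 0.06 ± 0.13 (SE, edgeR adjusted p = 0.690), with a 95% interval from -0.23 to 0.36, so a change of the size needed for a call lay outside the interval in both directions.

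Slc18a3, the vesicular transporter that loads acetylcholine into synaptic vesicles, is nested in Chat. In GRCm39, Chat spans chr14:32129369-32187946 on the minus strand, and Slc18a3, a single exon at chr14:32184395-32186807 on the same strand, lies in the intron that follows the first exonic block of Chat. Their starts are 1139 bases apart and they share 0 exonic bases. As Slc18a3 lies in an intron on the same strand, reads of unspliced Chat RNA there could be counted to Slc18a3. The part of such reads was not tested. An antisense long noncoding RNA, Litchi, which was not in the count table, overlaps 164 exonic bases of Chat and 1816 of Slc18a3.

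**Figure D2:**
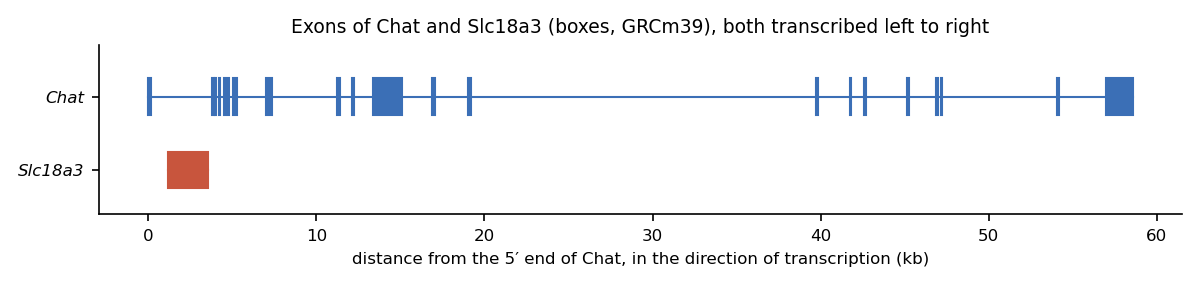
Exons of Chat (blue boxes) and the single exon of Slc18a3 (red box) drawn to scale, with distance from the 5′ end of Chat in kb on the horizontal axis and transcription from left to right. Slc18a3 sits between the first and the next exonic block of Chat.

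Slc18a3 measured 10.5, 9.36, 10.9 and 15.1 CPM in 6m and 9.81, 7.08, 6.66 and 7.25 CPM in 24m, in the order of replicates 1 to 4. Only 24m replicate 1 reached into the 6m range. The log2FC was -0.57 ± 0.18 (edgeR adjusted p = 0.0182), which passed the adjusted p and stopped just short of the fold threshold, so the gene was not called. Its adjusted p rose to 0.0523 without 24m replicate 2 and to 0.0562 without 24m replicate 3. It was called lower without 24m replicate 1 (-0.69) and without 6m replicate 1, 2 or 3 (-0.61, -0.66 and -0.60). Once a trend over exonic length was removed from each library, the log2FC of Slc18a3 was -0.19 (adjusted p = 0.261).

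Slc5a7, the high-affinity transporter that takes choline back into cholinergic terminals, rose in 24m. The gene lies at chr17:54580020-54606076 on the minus strand. Its counts were few, 16, 37, 15 and 26 in 6m and 71, 117, 107 and 174 in 24m. On the CPM scale these were 0.24, 0.52, 0.25 and 0.39 in 6m against 0.69, 1.46, 1.28 and 1.99 in 24m. All 24m libraries lay above all 6m libraries, with 24m replicate 1 the lowest of them. With edgeR this was a log2FC of 1.93 ± 0.36 (adjusted p = 0.00149), or 3.80-fold.

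Ache, the acetylcholinesterase that ends transmission and is made by cholinergic and other neurons, had the highest level of the 10 genes. At chr5:137285781-137292728 on the plus strand, it measured 233, 207, 199 and 244 CPM in 6m and 226, 166, 164 and 159 CPM in 24m. Its 24m replicate 1 lay within the 6m range and the other 24m libraries lay below it. Its log2FC was -0.31 ± 0.13 (edgeR adjusted p = 0.0596), which did not pass. Without 24m replicate 1 it was -0.42 with an adjusted p of 0.000651, still short of the fold threshold. An antisense long noncoding RNA that was not in the count table overlaps 302 exonic bases of Ache.

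Chat and Slc18a3 share a locus and neither was called, whereas Slc5a7 was called higher. The RefSeq promoter sequences of these genes are therefore shown, together with that of Chrnb2, the receptor gene with the smallest adjusted p. Each line holds the bases upstream of the gene's annotated exons within the 250-base window of the table, read 5′ to 3′ on the strand of the gene. The table was built on GRCm38.p6 and the stretches were placed in GRCm39 by exact match. They lie on the minus strand at chr14:32187947-32188116 for Chat, chr14:32186808-32187057 for Slc18a3, chr17:54606077-54606312 for Slc5a7 and chr3:89671954-89672189 for Chrnb2. Capitals mark letters searched for on both strands. These were TGACG, the core of the cyclic AMP response element, the GC-rich element GGGCGG, the start-site element TATAAA and the promoter element CCAAT, and none overlapped another in these stretches.
Chat: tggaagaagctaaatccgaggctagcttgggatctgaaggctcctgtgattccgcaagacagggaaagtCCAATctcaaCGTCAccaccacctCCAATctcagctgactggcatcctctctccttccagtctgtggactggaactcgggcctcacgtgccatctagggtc
Slc18a3: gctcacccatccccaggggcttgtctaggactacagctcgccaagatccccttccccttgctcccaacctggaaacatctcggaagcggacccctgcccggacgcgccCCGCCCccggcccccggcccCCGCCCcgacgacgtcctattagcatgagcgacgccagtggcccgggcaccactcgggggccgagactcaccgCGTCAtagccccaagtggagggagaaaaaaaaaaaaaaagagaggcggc
Slc5a7: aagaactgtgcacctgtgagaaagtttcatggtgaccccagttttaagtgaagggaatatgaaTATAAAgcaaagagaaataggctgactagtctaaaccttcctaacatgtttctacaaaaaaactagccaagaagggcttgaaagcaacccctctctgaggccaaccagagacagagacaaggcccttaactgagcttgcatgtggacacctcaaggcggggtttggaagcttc
Chrnb2: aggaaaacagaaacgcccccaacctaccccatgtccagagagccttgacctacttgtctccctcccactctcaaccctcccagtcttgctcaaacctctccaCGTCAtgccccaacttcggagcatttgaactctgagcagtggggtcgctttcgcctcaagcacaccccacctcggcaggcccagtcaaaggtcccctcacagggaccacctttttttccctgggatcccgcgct

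The window of Chat held 1 match to TGACG and 2 to CCAAT, that of Slc18a3 held 1 match to TGACG and 2 to GGGCGG, that of Slc5a7 held 1 match to TATAAA, and that of Chrnb2 held 1 match to TGACG. Among all 32851 promoters of that length in the table, 17.8% held TGACG, 32.7% GGGCGG, 12.4% TATAAA and 33.8% CCAAT. GC content was 54.8% in the window of Chat, 66.0% for Slc18a3, 45.6% for Slc5a7 and 59.6% for Chrnb2, against a median of 52.4% over all windows. The genes with a TGACG match thus had fold changes from -0.57 (Slc18a3) through 0.06 (Chat) to 1.20 (Chrnb2). A match of letters is a description of the sequence and not of binding.

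Of the muscarinic genes, both that couple to Gq rose. Chrm1, the main muscarinic receptor of cortex and hippocampus, lies at chr19:8640962-8662278 on the plus strand. It measured 72.4, 94.0, 87.7 and 85.0 CPM in 6m and 126, 140, 142 and 125 CPM in 24m. The ages were well apart, with a log2FC of 0.65 ± 0.10 (edgeR adjusted p = 0.000414). Removing a trend over exonic length brought it to 0.38 (adjusted p = 0.00583), below the fold threshold. A noncoding RNA on the opposite strand, not in the count table, overlaps 329 exonic bases of Chrm1.

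Chrm3, which is known outside the brain for smooth muscle and gland control and is also made in forebrain neurons, rose more. The gene lies at chr13:9925522-10410883 on the minus strand. Its levels were 7.19, 10.4, 10.2 and 7.91 CPM in 6m and 16.1, 23.5, 23.8 and 27.3 CPM in 24m. Every 24m library was above the 6m range, 24m replicate 1 the nearest to it. The rise was a log2FC of 1.34 ± 0.18 (edgeR adjusted p = 0.00027), or 2.54-fold.

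The Gi-coupled pair differed in size of change. Chrm4, which is most abundant in the striatum, lies at chr2:91757594-91759033 on the plus strand. It measured 24.4, 29.5, 26.3 and 28.5 CPM in 6m and 32.2, 36.8, 37.3 and 32.3 CPM in 24m, with no overlap between ages. Its edgeR adjusted p of 0.00969 passed, and its log2FC of 0.35 ± 0.10 was under the fold threshold. It was 0.99 (adjusted p = 0.000248) once a trend over exonic length was removed, and a call. The annotation used here gives Chrm4 1440 exonic bases, a coding length without untranslated parts, so its place on a length scale is uncertain.

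Chrm2, known as a presynaptic autoreceptor on cholinergic terminals and as the receptor of the heart, showed the largest fold change of the 10 genes at a low level. It lies at chr6:36364718-36505582 on the plus strand. Counts were 26, 34, 29 and 13 in 6m and 85, 158, 161 and 345 in 24m. These are 0.40, 0.48, 0.48 and 0.20 CPM against 0.82, 1.97, 1.93 and 3.96 CPM. The ages did not overlap, and 24m replicate 4 stood highest and 24m replicate 1 lowest among the aged libraries. The log2FC was 2.47 ± 0.47 (edgeR adjusted p = 0.00148), or 5.56-fold, and ran from 2.01 without 24m replicate 4 to 2.77 without 24m replicate 1. An antisense long noncoding RNA that was not in the count table overlaps 1121 exonic bases of Chrm2.

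Chrna4 and Chrnb2, whose products assemble into the most common high-affinity nicotine receptor of the brain, both rose. Chrna4, at chr2:180660173-180685339 on the minus strand, measured 14.0, 14.6, 14.4 and 16.1 CPM in 6m and 22.6, 30.6, 31.7 and 30.8 CPM in 24m. Its log2FC was 0.97 ± 0.12 (edgeR adjusted p = 0.000167). Chrnb2, at chr3:89653502-89671953 on the minus strand, measured 25.7, 30.3, 28.0 and 29.0 CPM in 6m and 59.3, 65.0, 66.7 and 68.0 CPM in 24m. Its log2FC was 1.20 ± 0.09 (edgeR adjusted p = 2.2e-05), or 2.30-fold. For both genes the spread within an age was small beside the gap between ages, and 24m replicate 1 was the lowest aged library.

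Chrnb2 shares 1365 exonic bases with Adar, an RNA-editing enzyme gene on the opposite strand. Adar itself rose from 79.4 ± 4.76 to 185 ± 18.5 CPM (SD, n = 4 each), a log2FC of 1.22 ± 0.09 (edgeR adjusted p = 2.42e-05). The libraries were directional, but the strand setting of the counting is not given in the sources used here, so reads of the shared bases may have been given to either gene or to neither. The part of Adar in the change of Chrnb2 was not tested.

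**Figure D3:**
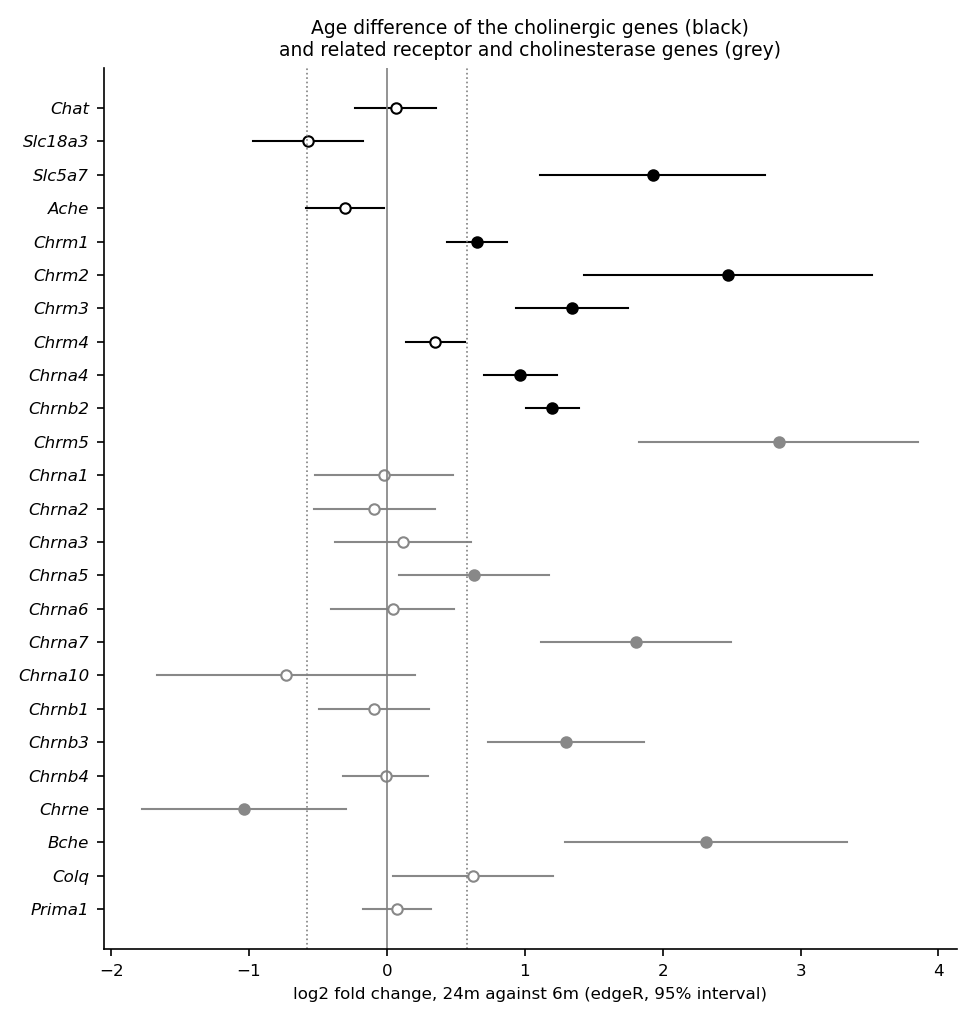
Log2 fold change of 24m against 6m from edgeR with its 95% interval (horizontal axis) for the 10 cholinergic genes (black) and for further receptor and cholinesterase genes (grey). Filled points were called, open points were not, dotted lines mark the fold threshold of 0.58 in both directions, and Slc18a3 sits next to the lower line at -0.57.

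Ratios within a library do not depend on library scaling, and 6 pairs chosen for their shared locus, cell or coupling were compared by exact two-sided permutation over the 70 assignments of 8 libraries, with Benjamini-Hochberg adjustment over the 6. The smallest p this design allows is 0.0286. Slc5a7 against Chat gave log2 ratios of -3.62 ± 0.64 in 6m and -1.79 ± 0.55 in 24m (SD), a difference of 1.83 with no overlap (exact permutation p = 0.0286, adjusted p = 0.0429, n = 4 each). Slc5a7 counts were thus 0.053 to 0.143 of Chat counts in 6m and 0.174 to 0.409 in 24m. For Slc18a3 against Chat the log2 ratio was 1.42 ± 0.25 in 6m and 0.79 ± 0.38 in 24m, a difference of -0.63 that did not pass (exact permutation p = 0.0571, adjusted p = 0.0686, n = 4 each). There 24m replicate 1, at 2.49 counts of Slc18a3 to each of Chat, lay within the 6m range of 2.33 to 3.44, and the other 24m libraries lay between 1.38 and 1.76. With the trend over exonic length removed, the log2FCs of these genes were closer together, -0.19 for Slc18a3 and -0.07 for Chat. Ache against Chat differed by -0.38 (exact permutation p = 0.2, adjusted p = 0.2, n = 4 each), with overlapping ages.

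Among receptor pairs, Chrna4 against Chrnb2 moved little, from a log2 ratio of -0.93 ± 0.09 to -1.17 ± 0.15, a difference of -0.24 without overlap (exact permutation p = 0.0286, adjusted p = 0.0429, n = 4 each). Chrm1 against Chrm3 went from 3.26 ± 0.15 to 2.58 ± 0.32, a difference of -0.68 with the same p and adjusted p. Chrm1 counts were 8.61 to 10.7 times those of Chrm3 in 6m and 4.57 to 7.83 times in 24m. Chrm2 against Chrm4 shifted by 1.98, from -6.18 ± 0.64 to -4.20 ± 0.92, again with the same p values. The receptor genes thus differed among themselves in how far they rose, and within both muscarinic pairs the gene with fewer counts rose more. The ratios were not computed with the trend over exonic length removed. With it removed, the log2FCs were 0.92 for Chrna4 and 0.89 for Chrnb2, so Chrnb2 no longer rose more. They were 0.38 for Chrm1, 1.20 for Chrm3, 2.26 for Chrm2 and 0.99 for Chrm4.

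**Figure D4:**
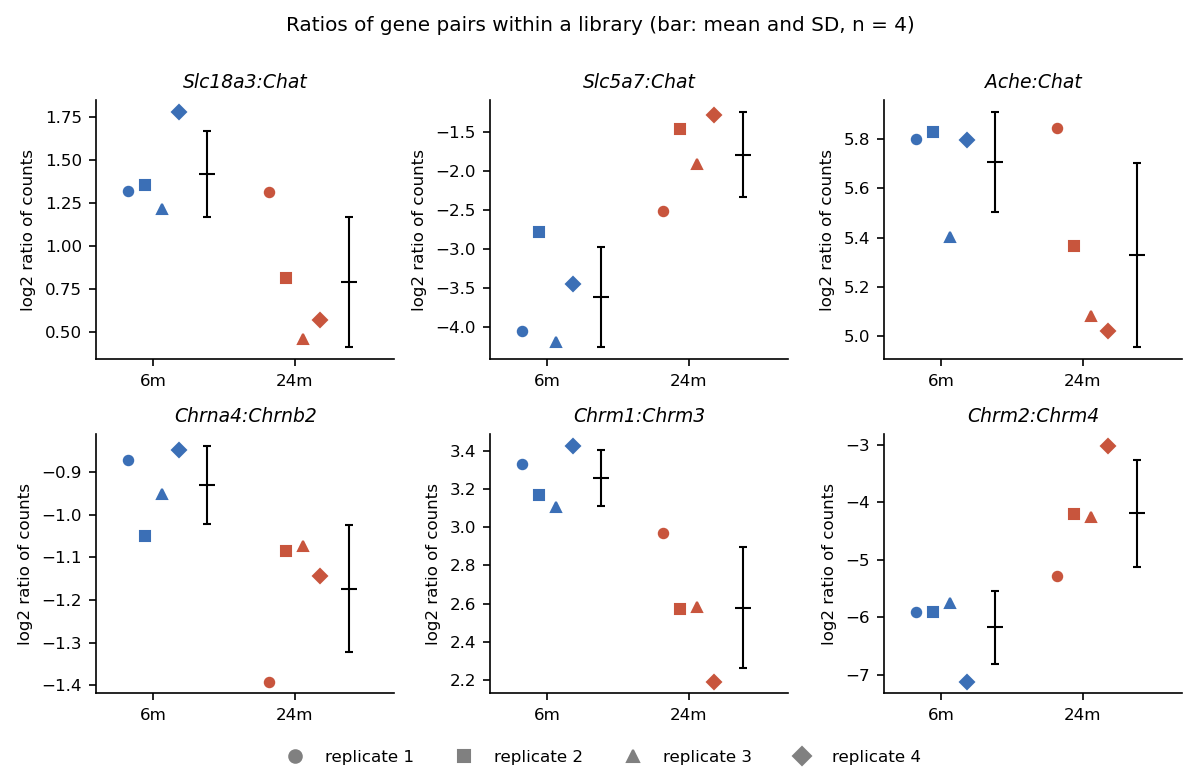
Log2 ratio of counts of 2 genes in the same library (vertical axis, not starting at 0) for 6 gene pairs, with points for the 4 libraries of 6m (blue) and 24m (red) and black bars for the mean and SD (n = 4). Slc5a7:Chat, Chrna4:Chrnb2, Chrm1:Chrm3 and Chrm2:Chrm4 show no overlap between ages, and Slc18a3:Chat and Ache:Chat overlap through 24m replicate 1.

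To compare levels between genes, CPM was divided by exonic length in kb. In 6m the order of the mean levels was Ache (42.3 CPM per kb), Chrm4 (18.8), Chrm1 (10.6), Slc18a3 (4.75), Chrnb2 (3.34), Chrna4 (2.83), Chrm3 (1.43), Chat (0.681), Chrm2 (0.0557) and Slc5a7 (0.0531). Neighbours in that order had separate ranges over the 4 libraries except Chrnb2 with Chrna4 and Chrm2 with Slc5a7. In 24m the order of the mean levels was Ache (34.2 CPM per kb), Chrm4 (24.0), Chrm1 (16.7), Chrnb2 (7.66), Chrna4 (5.53), Chrm3 (3.62), Slc18a3 (3.19), Chat (0.712), Chrm2 (0.311) and Slc5a7 (0.204). Here the ranges of Chrna4 with Chrm3, Chrm3 with Slc18a3 and Chrm2 with Slc5a7 overlapped. Slc18a3 stood above Chrnb2, Chrna4 and Chrm3 in 6m and below them in 24m, and the other genes kept their order. The level of Chrm4 per kb rests on its coding length alone.

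The remaining receptor genes were mostly low and did not share a direction. Of 15 further muscarinic and nicotinic genes 12 could be tested, 4 were called higher and 1 lower, and their median log2FC was 0.02. Chrm5, the muscarinic receptor known from dopamine neurons, rose from 0.0935 ± 0.0435 to 0.689 ± 0.354 CPM, a log2FC of 2.84 ± 0.45 (edgeR adjusted p = 0.000613). Chrna7, the subunit of the fast calcium-permeable nicotinic receptor, rose from 1.27 ± 0.189 to 4.45 ± 1.72 CPM (log2FC 1.80 ± 0.31, edgeR adjusted p = 0.000871). Chrnb3 rose by 1.30 and Chrna5, an accessory subunit of receptors with Chrna4, by 0.63 on the log2 scale (edgeR adjusted p = 0.00174 and 0.0433), the latter with overlapping ages and no call without 6m replicate 3 or 4 or 24m replicate 2, 3 or 4 (adjusted p = 0.0826 to 0.107). Nor was Chrna5 called by upper quartile factors, limma-voom, DESeq2 on quantile-normalized counts or the replicate block (log2FC 0.45 to 0.64). With the length or GC trend removed it was at 0.48 and 0.41 and not called. Chrne, a subunit of the muscle receptor, fell by 1.03 at 0.214 ± 0.0243 and 0.102 ± 0.0423 CPM (edgeR adjusted p = 0.0206). Chrne was not called with the trend over exonic length removed (-0.52, adjusted p = 0.177), without 6m replicate 3 (adjusted p = 0.0519) or with counts thinned to the smallest library (adjusted p = 0.0617). Chrna1, Chrna2, Chrna3, Chrna6, Chrna10, Chrnb1 and Chrnb4 did not pass, with log2FCs from -0.73 to 0.12. Chrna3 and Chrnb4, the pair of the medial habenula, were at 0.12 and -0.01. Chrna9, Chrnd and Chrng had too few counts to test.

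Genes that fold, traffic or tune nicotinic receptors gave 3 called higher and 1 lower of 8, with a median log2FC of 0.09. Lypd6 had the largest log2FC, 1.94 ± 0.21, followed by the chaperone gene Ric3 at 1.00 ± 0.16 and Lynx1, which damps nicotinic responses, at 0.99 ± 0.09. Ly6h, a relative of Lynx1 that limits surface receptors, fell from 551 ± 32.0 to 335 ± 71.7 CPM (log2FC -0.72 ± 0.14, edgeR adjusted p = 0.00164). Its log2FC stayed below 0 but short of the 0.58 threshold by library totals (-0.51), by DESeq2 on quantile-normalized counts (-0.43) and with the trend over exonic length (-0.55) or over GC content (-0.51) removed, so that it was not called there. Of the cholinesterase genes, Bche, the second enzyme able to split acetylcholine, rose by 2.31 on the log2 scale from 0.0783 ± 0.0539 to 0.404 ± 0.147 CPM. Prima1 and Colq, which anchor acetylcholinesterase in neurons and muscle, had log2FCs of 0.07 and 0.63 (edgeR adjusted p = 0.575 and 0.0573) and did not pass. Colq was called higher by DESeq2, by library totals, with the GC trend removed and without 6m replicate 1 or 4 or 24m replicate 4 (log2FC 0.62 to 0.84, adjusted p = 0.0127 to 0.0457).

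Among 15 genes of choline supply and acetyl-CoA, 6 were called higher and 1 lower, and the median log2FC was 0.33, or -0.13 with the trend over exonic length removed. The largest was Pcyt1a, the rate-setting enzyme of phosphatidylcholine synthesis, at 1.72 ± 0.14 (edgeR adjusted p = 2.71e-05). The gene called lower was Pemt, which methylates phosphatidylethanolamine, at -0.85 ± 0.25. Lower calls were 4 without 24m replicate 1, and 2 without 6m replicate 1 or 4 and by DESeq2 on quantile-normalized counts. Downstream of the Gq-coupled receptors, 9 of 13 genes were called higher with a median of 0.72, and the other 4 were not called. Without 24m replicate 4 the higher calls were 6, and with the length trend removed they were 6, with 1 lower and a median of 0.44. With all libraries and no trend removed, Prkca, a protein kinase C gene, had the largest log2FC of the 13, 2.09 ± 0.34. Downstream of the Gi-coupled receptors, 9 of 12 genes were called higher with a median of 1.08, or 8 with a median of 0.74 once the length trend was removed. Adcy1, an adenylyl cyclase gene, was at 3.49 ± 0.34 and Kcnj9, a G protein-gated potassium channel gene, at 0.67 ± 0.13, or 0.28 and not called with the length trend removed. In all, 35 of the 63 tested genes of these 6 lists were called (55.6%), against 43.6% of all tested genes. Of them 32 were higher and 3 lower, where 25.3% of all tested genes were called higher and 18.3% lower. With the length trend removed 26 of the 63 were called higher and 2 lower, against 3568 and 2885 of all 16730 tested genes.

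Genes that mark where cholinergic neurons sit did not share a direction. Of 8 genes of basal forebrain and striatal cholinergic neurons, Ngfr, the low-affinity neurotrophin receptor, was called higher at 1.22 ± 0.12, and 1 gene was called lower. The transcription factor genes Lhx8, Isl1, Gbx1, Nkx2-1 and Zic4 had log2FCs of -0.02 to 0.34 and did not pass, nor did Gfra2. The summed level of the 8 was 88.6 to 102 CPM in 6m and 73.0 to 95.2 CPM in 24m, and the ages overlapped. Of 8 genes of motor nuclei 6 could be tested and 3 were called lower, from Calcb at -1.57 to Calca at -0.91, with Prph between them; their sum was 27.0 to 46.5 CPM in 6m and 9.92 to 24.6 CPM in 24m. Of 6 medial habenula genes 2 were called higher, Nwd2 at 0.84 and Pou4f1 at 0.60, and 1 lower, Tac2 at -0.96. Their median log2FC was 0.15. Their sum, which is weighted to the genes of highest level, was 40.6 to 48.6 CPM in 6m and 33.1 to 39.7 CPM in 24m, without overlap. Pou4f1 was not called without 6m replicate 1 or 2 or 24m replicate 2 or 4 (edgeR adjusted p = 0.0575 to 0.0592). With the length trend removed neither Nwd2 (0.34) nor Tac2 (-0.42) was called, nor was Calca (-0.49).

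Markers of the cells that carry the receptors were all detected. Of 8 striatal genes 3 were called higher, with Pde10a at 1.98 the largest, and Penk was called lower at -0.64. Penk was not called without 6m replicate 4 (-0.57), by library totals (-0.42), by DESeq2 on quantile-normalized counts (-0.32) or with the length trend removed (-0.47). The sum of the 8 was 1194 to 1454 CPM in 6m and 945 to 1203 CPM in 24m. Of 8 cortical and hippocampal genes 4 were called higher and Nrgn lower at -0.83, and the median log2FC was 0.54. Their sum, which is weighted to the genes of highest level, was 4517 to 4875 CPM in 6m and 3137 to 4164 CPM in 24m, without overlap. Of 8 genes common to neurons Syt1 was called higher at 1.55 and 2 lower, with Elavl4 at -0.72 the smaller and Tubb3 the other, and their sum was 4133 to 4310 CPM in 6m and 3619 to 3803 CPM in 24m. Scaled by library totals the neuronal list had 2 higher calls, and neither Elavl4 (-0.49) nor Tubb3 (-0.42) was called. Tubb3 was also not called without 24m replicate 4 (-0.55), by DESeq2 on quantile-normalized counts (-0.31) or with the length (-0.42) or GC (-0.53) trend removed. Of 8 astrocyte genes 7 were called higher, from Fgfr3 at 0.59 to Aqp4 at 1.92. Aldh1l1 had the lowest log2FC of that list and was not called. It was called lower (-0.58) under the replicate block with the length trend removed. The sum of the 8 was 553 to 613 CPM in 6m and 1105 to 1224 CPM in 24m. Fgfr3 was not called without 6m replicate 1 or 24m replicate 3 or 4 (0.55 to 0.57) or with the length trend removed (0.26). Among 8 microglial genes 2 were called higher, Cx3cr1 at 1.72 and P2ry12 at 0.75 (the latter not without 6m replicate 1 or 4 or 24m replicate 2, 3 or 4), among 8 oligodendrocyte genes 1, and among 6 choroid plexus genes 3, from Aqp1 at 0.77 to Kl at 1.53. Folr1 and Ttr, also of the choroid plexus, were at -0.85 and -0.79 and did not pass (edgeR adjusted p = 0.0524 and 0.0598). In that list 2 genes were called lower by DESeq2, by limma-voom, with the replicate block, with the GC trend removed and without 24m replicate 1. With DESeq2 size factors in edgeR, DESeq2 on quantile-normalized counts, the length trend removed or 6m replicate 2 left out, 1 gene was called lower. The summed level of the choroid plexus genes was 1780 to 3205 CPM in 6m and 825 to 2259 CPM in 24m. Of 8 endothelial genes Flt1 was called higher at 1.24 and 3 lower, with Ly6c1 at -1.26 the smallest, and their sum was 92.4 to 130.1 CPM in 6m and 60.7 to 85.9 CPM in 24m. The sums of the microglial genes (555 to 619 and 535 to 781 CPM) and of the oligodendrocyte genes (3336 to 4192 and 3581 to 4225 CPM) overlapped between 6m and 24m. None of the markers tested was at 0 counts, and the part of these cell types in the change of the receptor genes was not tested.

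The fold changes of the 10 genes ran with the GC content of their exons. Slc5a7 (40.1% GC) and Chrm2 (42.2%) had the largest fold changes, and Ache (59.0%) and Slc18a3 (61.2%) the smallest. Across the 10 genes Pearson's r was -0.89 and Spearman's rho -0.83, and across 16677 tested genes with a known sequence r was -0.20. Over exonic length, on a log2 scale, r was 0.51 for the 10 genes and 0.38 for all. These correlations are across genes that share the same 8 libraries, and genes are not independent replicates. With the GC trend removed from each library the log2FCs were 1.60 for Slc5a7, 2.16 for Chrm2, 1.19 for Chrm3, 1.29 for Chrnb2, 1.12 for Chrna4, 0.68 for Chrm1, 0.52 for Chrm4, 0.07 for Chat, -0.12 for Ache and -0.33 for Slc18a3. The same 6 genes were called higher, and the adjusted p of Slc18a3 was 0.0544.

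**Figure D5:**
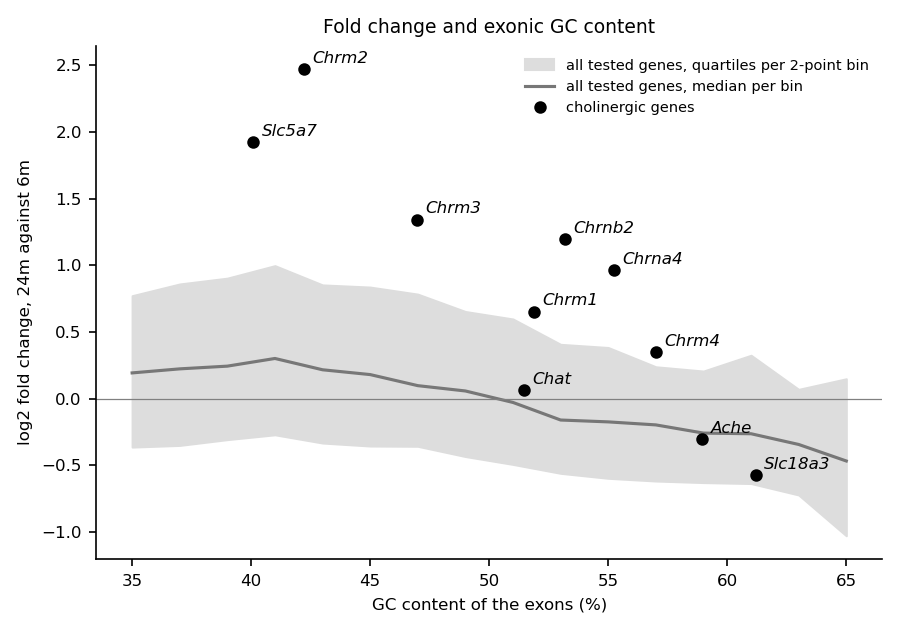
Log2 fold change of 24m against 6m (vertical axis) over the GC content of the exons in percent (horizontal axis) for the 10 cholinergic genes (black points) and for all tested genes (grey line, median, and grey band, quartiles, in bins of 2 percentage points). Chrm2, Slc5a7, Chrm3, Chrnb2, Chrna4, Chrm1 and Chrm4 lie above the band, Chat, Ache and Slc18a3 within it.

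Within an age, Chat did not deviate with the genes of the transporters. With each age mean removed, Pearson's r of log2 CPM over the 8 libraries was -0.03 between Chat and its nested gene Slc18a3 and 0.07 between Chat and Slc5a7. Slc18a3 and Ache went together (0.79), and Ache went against Chrm3 (-0.94) and Chrm2 (-0.89). Chrm1 with Chrm4 (0.89), Slc5a7 with Chrnb2 (0.89) and Chrna4 with Chrnb2 (0.72) went together. The 8 points share the libraries and their scaling, and 24m replicate 1 takes part in each of these values. By the same measure, the genes most like Chat among those of at least 1 CPM were Marveld1 (0.96), Paf1 (0.95) and Trim13 (0.95), and those most like Chrm1 were Mpped1 (0.99), Slc6a7 (0.99) and Tspan7 (0.96). These are the highest values picked from all tested genes of that level over only 8 libraries. Such picked values are high by selection, and no p was computed for them.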

How the data were processed

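Per the labels and the study's methods, poly(A) RNA of 8 brain hemispheres served for directional libraries, read as paired ends. The authors trimmed reads with Trim Galore 0.4.11, aligned them to GRCm39 with HISAT2 2.1.0 and counted them per Ensembl gene with featureCounts; the deposited values are raw counts, unpooled. Strand setting and multimapping are not given in the sources used here. Chi-square per degree of freedom was 8.18 to 417 over the 12 pairs of libraries of the same age, so no library repeated the counts of another. That each library is a separate animal rests on the study's description.

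Of 22430 listed genes 22281 matched the GENCODE annotation of GRCm39, and 16730 with more than 5 counts in at least 4 libraries were tested with edgeR 4.0.16 (R 4.3.3; quasi-likelihood, TMM, age only), with Benjamini-Hochberg adjustment over all of them. The thresholds, 0.05 and 0.58, are the study's. The SE is the fold change over the root of F. After ± stands the SE where the value is a log2FC and the SD over 4 libraries elsewhere. Ratios used log2 counts. The fit was tested on simulated data. The authors' quantile normalization before DESeq2 was run as an alternative, without their row medians. Other alternatives were DESeq2 1.42.0, limma-voom 3.58.1, scaling, filters, thinning, length and GC trends, the replicate number as a block and each library left out.

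The members and the 17 other gene lists were chosen with earlier results of these data known. The 10 members were all named, of further receptors and cholinesterase partners each tested gene was named or counted, and of other lists the called genes with the largest and the smallest fold change were named. Lynx1, Ric3, the transcription factors of cholinergic neurons, Gfra2, Prph, Pou4f1, Tubb3, Aldh1l1, Folr1 and Ttr were added after their values were seen. Some genes that this rule names are counted in their lists but not reported here by name. RefSeq promoters were matched by symbol for 9 of the 10 members. Long-read data and a second cohort were not analysed here.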

Additional observations from a re-analysis of the deposited data

Results flagged for a closer look

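Single libraries stood apart in 4 of 32 groups of 4 values checked for the 10 genes and the 6 ratios, where the gap to the nearest library, over the range of the group, exceeded the 95% critical value of Dixon's test. Chance alone flags about 1 in 20 such groups, and the ratios reuse the counts of the genes. Ache in 24m replicate 1 was at 226 CPM, with the other 24m libraries at 159 to 166. Chrna4 in the same library was at 22.6 CPM, with the others at 30.6 to 31.7. The log2 ratio of Ache to Chat in 6m replicate 3 was 5.40, with the others at 5.80 to 5.83. The log2 ratio of Chrm2 to Chrm4 in 6m replicate 4 was -7.12, with the others at -5.92 to -5.75, where Chrm2 had 13 counts.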

How the results depend on the processing

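The call of Slc5a7, Chrm2, Chrm3, Chrna4 and Chrnb2 as higher was kept under every alternative that could be run, 20 each for Slc5a7 and Chrm2, which drop out at 1 CPM in 4 libraries, and 21 each for the others. Scaling by library totals alone moved the median of all genes, on the log2 fold change scale, from -0.0034 to 0.21 and left 1746 genes called lower in place of 3058, and the adjusted p alone gave 4999. Called lower among the members was 1 gene, Slc18a3, under upper quartile factors, DESeq2 on quantile-normalized counts (-0.83), the 1 CPM filter and the adjusted p alone, and 0 to 1 with a library left out. Its log2 fold change was -0.36 (adjusted p = 0.071) by library totals, where all genes were shifted by the amount above. Chat changed sign under DESeq2 on quantile-normalized counts (-0.30, adjusted p = 0.0442), without 6m replicate 2 (-0.0011, with 0.137 at the other end of the libraries left out) and with the length trend removed (-0.070 without and -0.070 with the replicate block). Of the 63 pathway genes, 2 to 6 were called lower with a library left out, 6 without 24m replicate 1 against 3. With a library left out, the ratio differences were 1.64 to 2.11 for Slc5a7:Chat, -0.283 to -0.17 for Chrna4:Chrnb2, -0.807 to -0.548 for Chrm1:Chrm3 and 1.59 to 2.34 for Chrm2:Chrm4, where the smallest p possible is 0.0571 and no ratio can pass. Of 72 called genes of the other lists, 12 lost the call without at least 1 library, among them Chrna5, Chrne, P2ry12, Fgfr3 and Penk. The cause of these shifts was not tested. Genes of few counts, such as Slc5a7 with 15 to 37 and Chrm2 with 13 to 34 counts in 6m, limit the precision of their fold changes.

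Replicate numbers did not pair the animals: the correlation of same-numbered libraries was 0.27, 0.14, 0.08 and -0.35, and only replicate 1 correlated best with its own number. With the number as a block 4112 genes were called higher and 3130 lower, and 6 members higher and 0 lower. Sign flips of the paired ratio differences (1.83, -0.24, -0.68 and 1.98) gave an adjusted p of 0.15, the smallest p in that design being 0.125.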
